A study of Mus musculus with 21 samples.

Results

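The 9 genes described here encode the receptors and effectors of the Hedgehog pathway, namely Ptch1, Hhip, Boc, Cdon, Gas1, Smo, Gli1, Gli2 and Gli3. They were taken by symbol from the 24594 genes of the count tables. The rule used no measured value, but the genes were chosen with earlier results of these data known. RNA was sequenced from mouse embryos of a mixed C57Bl/6J and CD1 background, with embryos of both sexes pooled, in 7 groups of 3 libraries (21 libraries in all). The genotype series held 12 libraries of pharyngeal arch 2 (PA2) and pharyngeal arch 3 (PA3), the embryonic swellings that form parts of the ear and neck, dissected at E10.5 (E for embryonic day). No sort was stated for them. They came from wild-type embryos (PA2 WT, PA3 WT) and from embryos homozygous for a CRISPR/Cas9 deletion of HIRE1 (PA2 HIRE1del, PA3 HIRE1del), a distal regulatory region of the Hoxa genes. The stage series held 9 libraries of Wnt1::Cre;ROSA-RFP cells, which FACS had collected at E10.5 out of PA2 and at E12.5 and E14.5 out of the pinna. The pinna is the part of the outer ear that projects from the head. The Wnt1-driven Cre labels cranial neural crest cells and all their descendants, so that a sort for the reporter also keeps crest-derived glia and pigment cells. No HIRE1 deletion is given for these embryos, and the E14.5 tissue was digested with papain where the E10.5 and E12.5 tissue was digested with trypsin.

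Hedgehog ligands (Shh, Ihh and Dhh in the mouse) are secreted and bind Ptch1, which in their absence holds the transmembrane protein Smo inactive. Boc, Cdon and Gas1 are co-receptors that help the ligand reach Ptch1, and Hhip binds the ligand and removes it. Active Smo changes the handling of the transcription factors Gli2 and Gli3 at the primary cilium, with Gli2 the main activator and Gli3 a main source of the repressor form. Gli1 and Ptch1 are themselves direct targets, so that their transcripts are widely read as a measure of pathway activity. In the face, ligand from the pharyngeal epithelium acts on the crest mesenchyme beneath it.

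Each library held 25.8 to 49.1 M counts, the deepest being those of E14.5 (47.5 to 49.1 M). Levels are given as CPM, counts scaled to a common library size with TMM factors, and comparisons between genes as CPM per kb of exon. Hoxa2, the gene that the deletion of HIRE1 was made to affect, had 73.4 to 84.2 CPM in PA2 WT against 4.75 to 7.10 in PA2 HIRE1del, and 56.0 to 65.1 in PA3 WT against 22.1 to 25.6 in PA3 HIRE1del. The labels call all cells cranial neural crest cells. Summed levels of 6 erythroid markers were 1.83 to 11.6 CPM in the sorted libraries, but 1526 to 3308 CPM in the PA2 arches and 12356 to 24430.1 CPM in the PA3 arches. The 8 epithelial markers summed to 11.4 to 39.5 CPM in the sorted libraries and to 259 to 806 CPM in the arches, so that the genotype libraries also held RNA of blood and epithelium. All 8 crest mesenchyme markers reached 1 CPM in every arch group and in sorted E10.5 PA2, and 7 of 8 did so in the pinna. No test was made across the series, which differed in sorting and in read layout.

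All 9 genes passed the filter of at least 1 CPM in at least 2 libraries of a table, in both series. Ptch1 (ENSMUSG00000021466) lies on chromosome 13 at 63508328 to 63573598 of the GRCm38 genome on the minus strand, with 12222 exonic bases in the count table. Hhip (ENSMUSG00000064325) spans 79965851 to 80058006 of chromosome 8, minus strand. Boc (ENSMUSG00000022687) spans 44485049 to 44558897 of chromosome 16, minus strand, and Cdon (ENSMUSG00000038119) 35421128 to 35507652 of chromosome 9, plus strand. Gas1 (ENSMUSG00000052957), an intronless gene at 60174405 to 60177365 of chromosome 13 on the minus strand, shares 589 of its exonic bases (19.9%) with Gm48488 on the other strand. Smo (ENSMUSG00000001761) spans 29735503 to 29761365 of chromosome 6, plus strand, 22.4 Mb from Hoxa2. Gli1 (ENSMUSG00000025407) spans 127329882 to 127341974 of chromosome 10, minus strand, and shares 62 exonic bases with Arhgap9 and 265 with Gm47200. Gli2 (ENSMUSG00000048402) spans 118834132 to 119053619 of chromosome 1, minus strand, and Gli3 (ENSMUSG00000021318) 15463235 to 15730026 of chromosome 13, plus strand. Gli3 shares 188 exonic bases with Gm6556 and Hhip 175 with Gm27820. The kit did not mark strand, so that reads in these shared stretches cannot be told apart from those of the partner gene.

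RefSeq promoter entries (GRCm38.p6) matched 7 of the 9 genes, with none for Gli1 and Boc. The 250 bases before the start are shown for Ptch1, whose transcript fell most among the receptors, and for Gli2 and Gli3, related factors of which Gli3 changed far more than Gli2 across the stages. Each is written 5′ to 3′ on the strand of the gene, with CpG dinucleotides in capitals. They are chr13:63565736-63565985 (minus strand) for Ptch1, chr1:119053620-119053869 (minus strand) for Gli2 and chr13:15463473-15463722 (plus strand) for Gli3.
Ptch1: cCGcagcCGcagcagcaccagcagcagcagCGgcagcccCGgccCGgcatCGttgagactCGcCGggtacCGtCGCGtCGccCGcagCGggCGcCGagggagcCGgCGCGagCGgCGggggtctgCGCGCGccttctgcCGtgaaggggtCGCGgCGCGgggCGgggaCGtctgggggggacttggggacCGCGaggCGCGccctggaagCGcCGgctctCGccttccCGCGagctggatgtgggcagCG
Gli2: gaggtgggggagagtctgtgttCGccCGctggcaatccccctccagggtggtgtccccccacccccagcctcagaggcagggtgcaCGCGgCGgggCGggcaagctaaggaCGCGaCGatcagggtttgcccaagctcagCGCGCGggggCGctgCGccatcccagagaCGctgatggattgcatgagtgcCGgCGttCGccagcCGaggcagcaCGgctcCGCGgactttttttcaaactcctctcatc
Gli3: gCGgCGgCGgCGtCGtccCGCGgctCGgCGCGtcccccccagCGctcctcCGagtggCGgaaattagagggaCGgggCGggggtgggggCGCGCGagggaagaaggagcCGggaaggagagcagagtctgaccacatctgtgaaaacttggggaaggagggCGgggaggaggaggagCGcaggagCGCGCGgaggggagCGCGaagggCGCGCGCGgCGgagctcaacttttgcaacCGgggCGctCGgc
The Ptch1 window held 41 CpG at 78.4% GC, the Gli2 window 22 at 67.2% and the Gli3 window 34 at 72.8%. The Gli2 start was the 5′ end of the annotated gene, whereas the Ptch1 start lay 7863 bases and the Gli3 start 488 bases inside the annotated gene. The Gli3 window also overlaps an exon of the antisense gene Gm6556. The sequence bound by Gli factors, GACCACCCA, and its variant GACCTCCCA were searched on both strands of the 300 bases from 250 before to 50 after the start. They were found in 0.253% and 0.314% of 32851 promoters, and in 0 of the 7 windows of these genes, which says only that these letters are not in these windows.

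The first question was how the pathway's receptors and effectors changed in crest cells as PA2 became the pinna. From E10.5 PA2 to the E12.5 pinna, Ptch1 and Gli1 fell steeply, Boc and Cdon rose more than 3-fold, Gli3 and Smo fell a little and Gli2 rose a little. From E12.5 to E14.5 Gli1 rose again, Ptch1 rose slightly, Boc and Cdon continued to rise, and Gli3 fell. Hhip and Gas1 did not pass the test at any step. At an adjusted p under 0.05 (quasi-likelihood test of edgeR, Benjamini-Hochberg adjusted over all genes), 7 of the 9 genes differed between E12.5 and E10.5, 3 higher and 4 lower, where 68.8% of the 13438 genes tested did (35% higher and 33.7% lower). Between E14.5 and E12.5, 6 of 9 differed, 4 higher and 2 lower, against 65.7% of all genes (32.6% higher and 33.1% lower), and between E14.5 and E10.5 6 of 9 did, 2 higher and 4 lower, against 82% (42% higher and 40% lower). These counts are near the background. A called log2 change of at least 1 in size was found for 4 of 9 genes at the first step (21.6% of all genes), for 3 at the next (19.7%) and for 5 over both (39.3%). The 3 comparisons share libraries in pairs. In these bulk samples fewer cells of a type and less RNA per cell cannot be told apart, and stage cannot be told apart from tissue, nor at E14.5 from the digestion with papain.

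**Figure D1:**
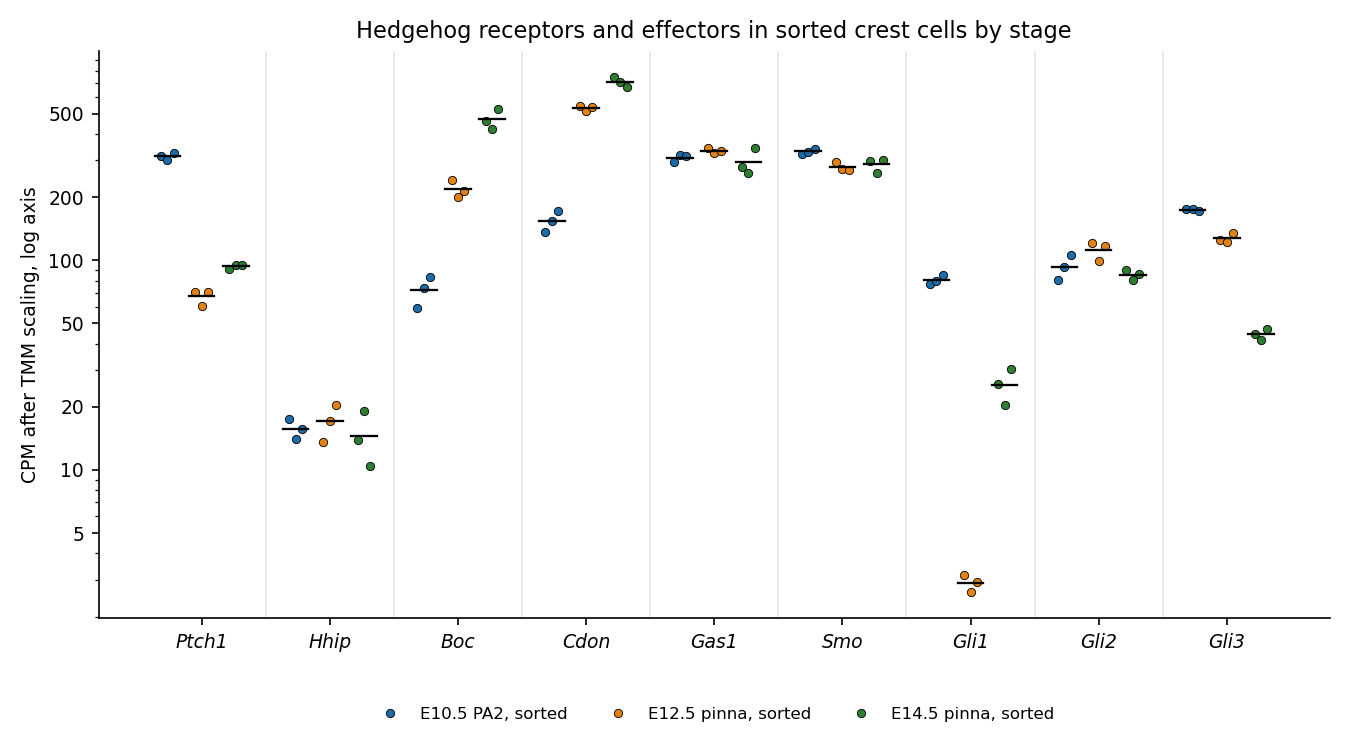
Levels of the 9 genes in the 9 sorted libraries, in CPM after TMM scaling on a log axis, with 1 point per library and a bar at the mean of each group of 3. Gli1 lies at 2.61 to 3.16 CPM in the E12.5 pinna against 77.3 to 85.1 in E10.5 PA2, while Boc and Cdon climb from stage to stage.

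Among the receptors, Ptch1, which binds the ligand and restrains Smo, had 314, 303 and 324 CPM in the E10.5 PA2 libraries. It had 70.4, 60.8 and 70.8 CPM in the E12.5 pinna and 90.6, 94.6 and 95.1 CPM in the E14.5 pinna. The 3 stages did not overlap, with E10.5 highest and E12.5 lowest. At E12.5 Ptch1 fell by 2.22 on the log2 scale (log2 fold change -2.22, edgeR adjusted p 1.17e-09), or 4.66-fold. The later rise was 0.47 (SE 0.07, edgeR adjusted p 9.12e-05), a 1.39-fold increase that left Ptch1 3.36-fold below E10.5 PA2 (log2 fold change -1.75, SE 0.07; adjusted p 8.36e-10 by edgeR).

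Hhip, the ligand-binding antagonist, was low throughout. Its levels were 17.5, 14.0 and 15.8 CPM at E10.5, 13.6, 17.2 and 20.5 CPM at E12.5 and 14.0, 19.2 and 10.46 CPM at E14.5, with overlapping groups. Its log2 fold changes were 0.12 (95% interval -0.34 to 0.58) at the first step and -0.23 (-0.69 to 0.22) at the next, with edgeR adjusted p of 0.632 and 0.338. Without sorted E14.5 pinna replicate 2, the second of these was -0.48 with an adjusted p of 0.0421. Although Hhip is often listed as a target beside Ptch1 and Gli1, the large fall of those genes at E12.5 had no counterpart of that size in Hhip, whose interval at that step ended at -0.34.

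The co-receptor Boc, an immunoglobulin-family membrane protein, had 59.3, 73.6 and 83.3 CPM at E10.5, 241, 201 and 215 CPM at E12.5 and 461, 423 and 529 CPM at E14.5. Every library lay above all those of the stage before. Boc rose 3.04-fold at E12.5 (log2 fold change 1.60, SE 0.12, edgeR adjusted p 6.83e-07) and a further 2.15-fold at E14.5 (95% interval 1.78 to 2.59; edgeR adjusted p 1.28e-05). The rise over both steps was 6.53-fold (95% interval 5.37 to 7.96; edgeR adjusted p 4.10e-09).

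Cdon, a close relative of Boc in structure and function, had 137, 153 and 172 CPM at E10.5, 542, 517 and 538 CPM at E12.5 and 753, 708 and 667 CPM at E14.5. Again no library overlapped the stage before. The rise was 3.46-fold at E12.5 (log2 fold change 1.79, SE 0.08, edgeR adjusted p 1.53e-08) and 1.33-fold at E14.5 (0.41, SE 0.08, edgeR adjusted p 0.000856). Over both steps Cdon rose 4.61-fold (95% interval 4.05 to 5.24; edgeR adjusted p 7.28e-10).

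Gas1, a membrane-anchored co-receptor unrelated in sequence to these, stayed near its starting level, with 294, 319 and 315 CPM at E10.5, 342, 326 and 331 CPM at E12.5 and 279, 262 and 343 CPM at E14.5. The log2 fold change was 0.11 (95% interval -0.09 to 0.30, edgeR adjusted p 0.296) at the first step and -0.18 (-0.37 to 0.02, edgeR adjusted p 0.0995) at the next. E14.5 replicate 3 stood apart from the other E14.5 libraries, and without it Gas1 was called lower than at E12.5 (-0.30, edgeR adjusted p 0.00210) and than at E10.5 (-0.19, edgeR adjusted p 0.0181). Scaling by total counts alone also gave a called fall from E12.5 (-0.30, edgeR adjusted p 0.00848). That scaling shifted the median of all genes at this step by -0.12, and the share of higher genes among those called moved from 49.7% to 38.5%.

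Because Boc and Cdon rose and Gas1 did not, the make-up of the co-receptor transcripts changed. Per kb of exon, Gas1 made up 74.4% ± 2.04 (SD, n = 3) of the summed level of the 3 co-receptors at E10.5, 48.8% ± 0.701 at E12.5 and 33.4% ± 2.35 at E14.5. Boc made up 11.5% ± 1.24, 21.3% ± 1.16 and 35.5% ± 1.31 at the same stages, and Cdon 14.2% ± 0.836, 29.9% ± 0.567 and 31.1% ± 3.63. Thus, per kb of exon, a single co-receptor transcript dominated in E10.5 PA2, and the 3 were near equal shares in the E14.5 pinna. Without division by exon length Gas1 still led at E10.5 (57.9%), but Cdon led in the pinna. It then had 49.1% of the co-receptor counts at E12.5. At E14.5 Cdon had 48.2%, Boc 31.9% and Gas1 19.9%. In the same libraries the summed 7 Schwann cell and melanocyte markers went from 17.9 to 20.2 CPM at E10.5 to 41.5 to 55.0 at E12.5 and 352 to 409.53 at E14.5, with 7 of 7 called higher at the last step. The part of such cells in these results was not tested.

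**Figure D2:**
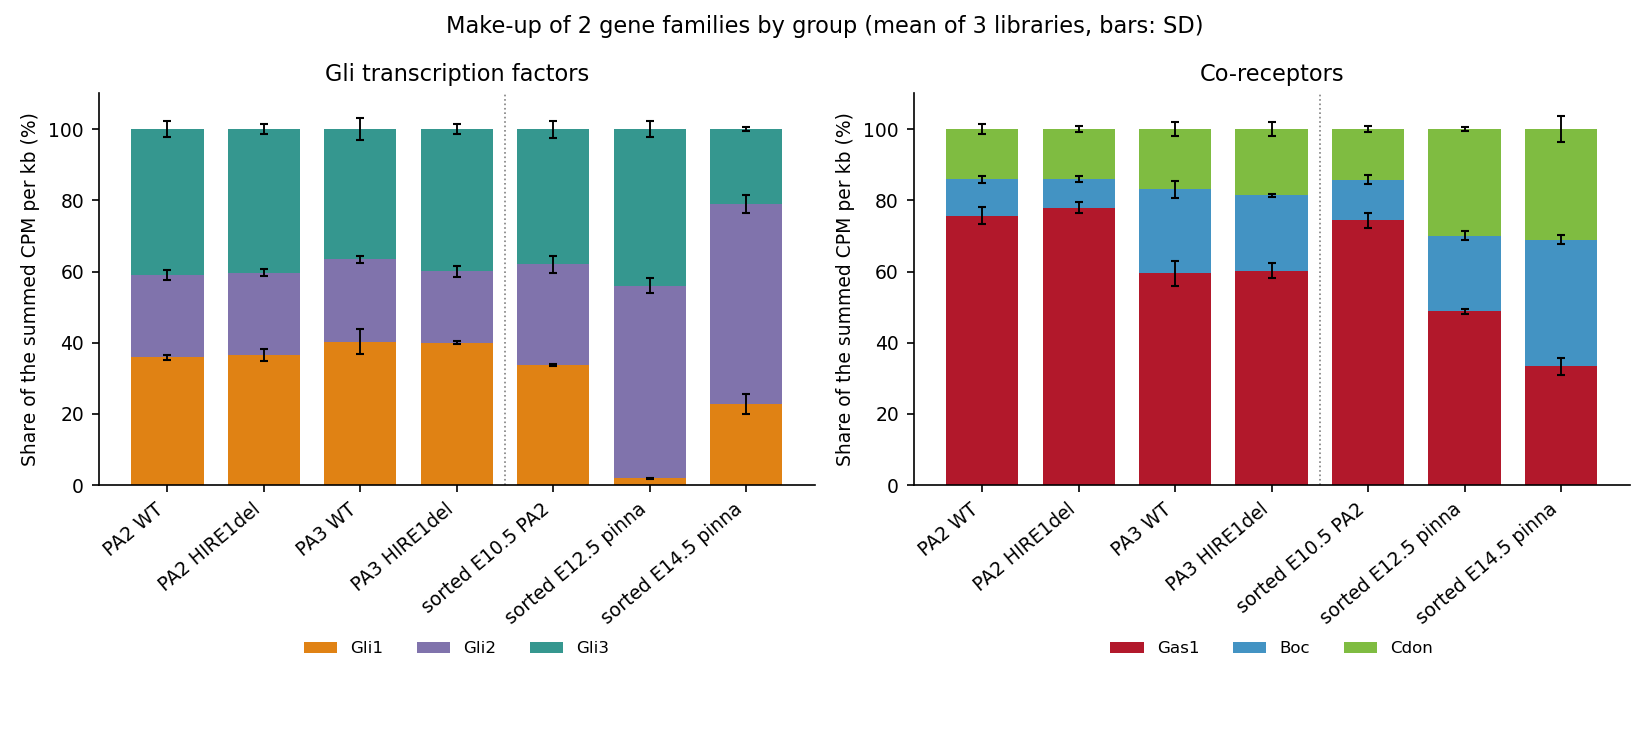
Share of each gene in the summed CPM per kb of the 3 Gli factors (left) and of the 3 co-receptors (right) in each of the 7 groups, as the mean of 3 libraries with SD bars at the top of each segment. The dotted line separates the unsorted arches from the sorted cells. Gli1 shrinks to 1.92% at E12.5, and Gas1 from 74.4% at E10.5 to 33.4% at E14.5.

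Smo, the transducer that Ptch1 restrains, had 322, 329 and 339 CPM at E10.5, 293, 274 and 269 CPM at E12.5 and 298, 262 and 302 CPM at E14.5. All later libraries lay below those of E10.5, but the differences were small. Smo was 1.19-fold lower at E12.5 than at E10.5 (log2 fold change -0.25, SE 0.07, edgeR adjusted p 0.00626) and did not pass the test between E12.5 and E14.5 (0.04, 95% interval -0.10 to 0.19). Its difference between E14.5 and E10.5 (-0.20, edgeR adjusted p 0.0145) was not called without sorted E14.5 pinna replicate 2 (-0.13, edgeR adjusted p 0.0541), nor when genes had to reach 1 CPM in every library (-0.14, adjusted p 0.0760).

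Of the effectors, Gli1, the activator that is induced by the pathway itself, showed the largest change of the 9 genes. Its levels were 77.3, 79.6 and 85.1 CPM at E10.5, 3.16, 2.61 and 2.92 CPM at E12.5 (80 to 86 counts per library) and 25.6, 20.4 and 30.5 CPM at E14.5. The groups were far apart, with E12.5 lowest. Gli1 fell 27.9-fold at E12.5 (log2 fold change -4.80, 95% interval -5.14 to -4.46, edgeR adjusted p 1.35e-09), a larger fall than that of Ptch1, whose interval ended at -2.37. It then rose 8.81-fold at E14.5 (95% interval 6.98 to 11.1; edgeR adjusted p 2.51e-08), a rise of 3.14 on the log2 scale against 0.47 for Ptch1, and stayed 3.16-fold below E10.5 (edgeR adjusted p 1.46e-07). Arhgap9, which shares exonic bases with it, had only 0.588 to 1.09 CPM at E12.5.

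Gli2, the main activator among the factors that are not induced by the pathway, changed little. It had 80.7, 92.8 and 106 CPM at E10.5, 121, 99.5 and 117 CPM at E12.5 and 89.5, 80.2 and 86.3 CPM at E14.5. The E10.5 libraries overlapped both later stages. The log2 fold change was 0.27 at E12.5 (SE 0.10; adjusted p 0.0348 by edgeR). It was no longer called on leaving out E10.5 replicate 1 (0.17, adjusted p 0.138), E10.5 replicate 2 (0.26, 0.0813), E12.5 replicate 1 (0.21, 0.115) or E12.5 replicate 3 (0.25, 0.0825). The fall from E12.5 to E14.5 was 0.40 on the log2 scale (log2 fold change -0.40, SE 0.10, edgeR adjusted p 0.00516).

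Gli3, the factor that gives most of the repressor form, had 175.4, 175.1 and 171 CPM at E10.5, 125, 122 and 134 CPM at E12.5 and 44.5, 41.8 and 47.3 CPM at E14.5. The 3 stages did not overlap and declined in order. The log2 fold change was -0.45 at E12.5 (SE 0.06, edgeR adjusted p 5.21e-05), -1.51 from E12.5 to E14.5 (SE 0.06, edgeR adjusted p 9.68e-09) and -1.97 over both (SE 0.06, edgeR adjusted p 2.13e-10), or 3.91-fold. Its main fall thus came at the step at which Gli1 rose.

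The make-up of the Gli transcripts turned over accordingly. Per kb of exon, Gli1 made up 33.7% ± 0.298 (SD, n = 3) of the Gli sum at E10.5, 1.92% ± 0.0924 at E12.5 and 22.9% ± 2.80 at E14.5. Gli3 made up 38.0% ± 2.36, 44.0% ± 2.16 and 20.96% ± 0.662, and Gli2 28.3% ± 2.43, 54.1% ± 2.09 and 56.1% ± 2.54. Per kb of exon, Gli2 was therefore the most abundant Gli transcript of the pinna at both stages, where Gli3 was at E10.5. Without division by exon length Gli3 still led at E12.5, with 52.5% of the Gli counts against 46.3% for Gli2.

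**Figure D3:**
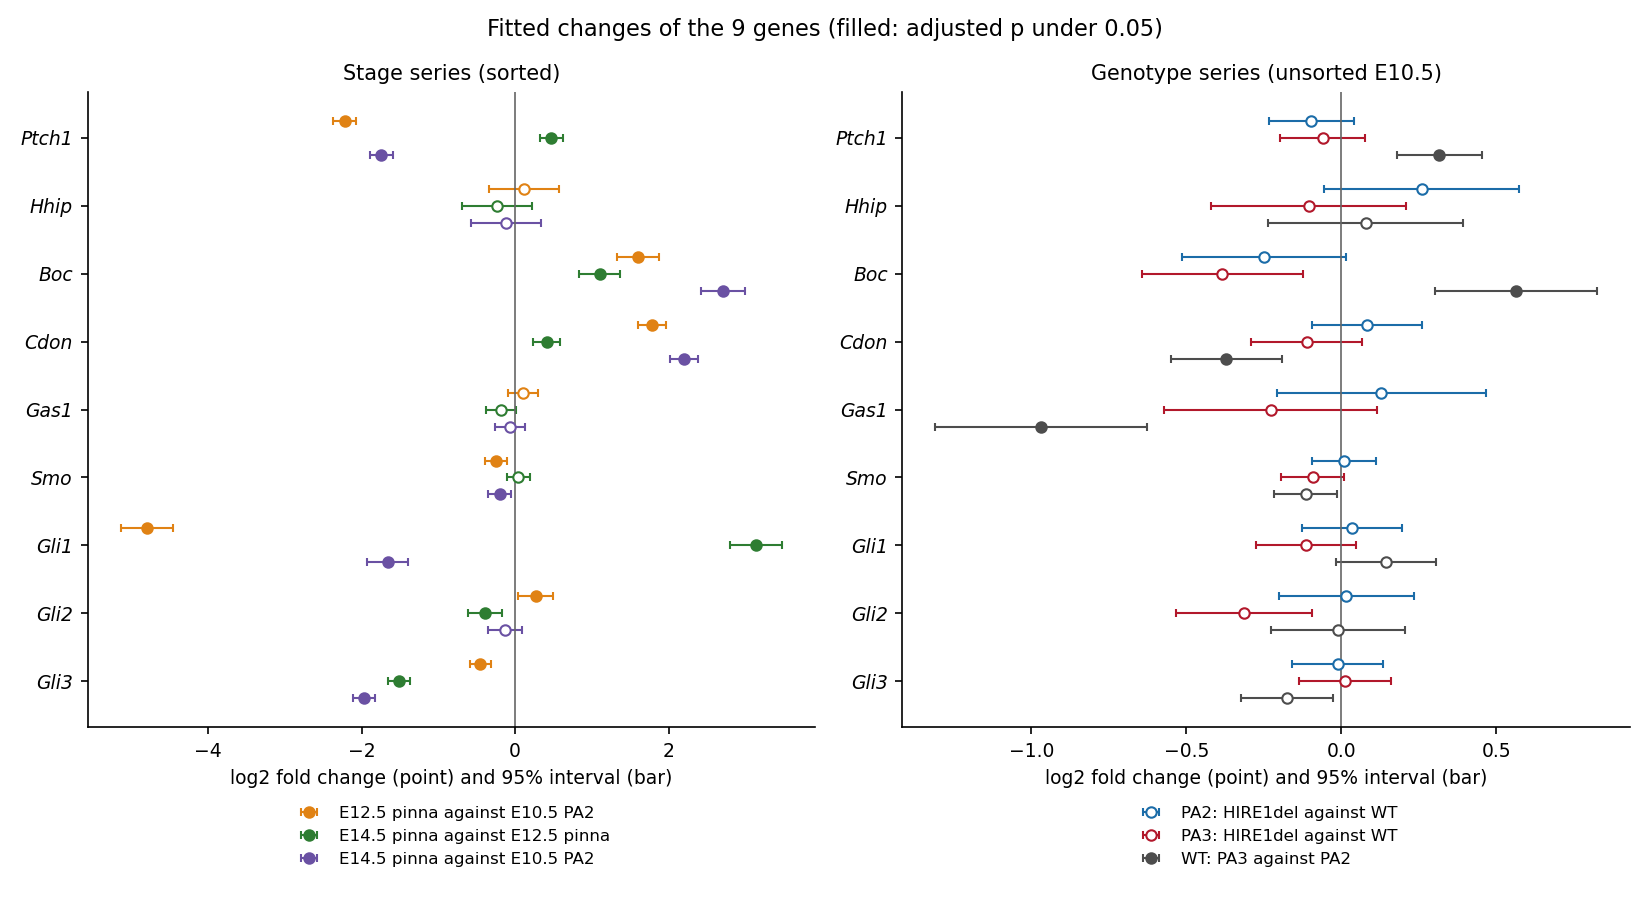
Fitted log2 fold changes of the 9 genes (points) with 95% intervals (bars) in the 3 stage comparisons (left) and in 3 comparisons of the E10.5 arches (right, on a narrower axis), filled where the edgeR adjusted p was under 0.05. The stage changes reach -4.80 for Gli1, whereas no HIRE1del point is filled and the arch difference of Gas1 is -0.97.

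Ranked by CPM per kb, Gas1 (104 ± 4.42, SD, n = 3) and Smo (87.4 ± 2.26) led in sorted E10.5 PA2, followed by Ptch1 (25.7 ± 0.893). Cdon (19.9), Gli3 (18.1), Boc (16.2) and Gli1 (16.1) came next, and each neighbouring pair of these overlapped. Gli2 (13.6) and Hhip (1.74 ± 0.194) were lowest. At E12.5 the order was Gas1 (113), Smo (73.7), Cdon (69.0), Boc (49.3), Gli2 (16.3), Gli3 (13.3), Ptch1 (5.51), Hhip (1.88) and Gli1 (0.580), and no neighbouring pair overlapped. At E14.5 Boc (106 ± 12.1), Gas1 (99.5) and Cdon (91.9 ± 5.54) overlapped in sequence at the top, above Smo (76.0), Gli2 (12.4), Ptch1 (7.64), Gli1 (5.11), Gli3 (4.64) and Hhip (1.60), with Gli1 and Gli3 overlapping. Ptch1 thus moved from the third to the seventh place and back to the sixth.

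The remaining pathway genes were counted by list. Of the ligands, Shh had 0 counts in 8 of the 9 sorted libraries and 1 count in an E14.5 library, where 3 counts correspond to 0.0631 to 0.111 CPM. Ihh was at 0.201 to 0.617 CPM and Dhh at 0.103 to 0.963 CPM in the sorted libraries, and all 3 ligands were below the filter there. Of the genes for ligand maturation and release, Disp1, which exports the lipid-bearing ligand, rose 2.20-fold at E12.5 (1.14, SE 0.08, edgeR adjusted p 3.46e-07) and kept 157 CPM at E14.5. Scube2, a secreted protein that carries the ligand away from the cell, rose from 0.256 ± 0.126 CPM at E10.5 to 1.23 ± 0.292 at E12.5 and 10.4 ± 2.76 at E14.5 (SD, n = 3), a log2 fold change of 5.32 over both steps (SE 0.33, edgeR adjusted p 3.61e-08). It passed the filter through the pinna libraries, where it was higher, so that its test is not independent of that choice. Scube1, its relative, fell from 109 ± 29.8 to 66.6 ± 2.48 and 20.1 ± 5.38 CPM (log2 fold change -2.45 over both steps, SE 0.21, edgeR adjusted p 5.61e-07). Hhat, which adds palmitate to the ligand, fell by 0.43 at E12.5 (edgeR adjusted p 0.00359), and Scube3 stayed at or below 1.11 CPM in these libraries.

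Among the other surface modifiers, the glypican Gpc3 (-0.57) was called lower and Mgrn1 (0.44) and Mosmo (0.25) were called higher at E12.5. In the list of intracellular and cilium-linked regulators, 12 of 21 tested genes were called at E12.5, 10 higher and 2 lower, where 68.8% of all genes were called, with a median log2 fold change of 0.15 against 0.01 for all genes. The largest were Ulk3 (0.86), a kinase that acts on Gli factors, the ciliary protein Evc (0.60) and the kinesin subunit Kif3a (0.51) among the rises, and the protein kinase A subunit Prkaca (-0.32) and Grk2 (-0.15) among the falls. From E12.5 to E14.5, 14 of 21 were called, where 65.7% of all genes were. Of these 8 were higher, led by Evc2 (0.65), Ulk3 (0.62) and Arl13b (0.48), and 6 were lower, led by Stk36 (-1.09), Gpr161 (-0.51) and Prkaca (-0.43).

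The mesenchymal genes listed as responsive to Hedgehog were counted in the same way. All 14 tested of 15 were called at E12.5, 10 lower and 4 higher, where 68.8% of all genes were called, with a median log2 fold change of -2.98 against 0.01 for all genes. The median was also -2.98 with Foxf1, at 1 count in the 3 E12.5 libraries together, set to its bound of 3 counts over the group. Foxf1, Foxf2 and Foxl1 were below 1 CPM in the pinna and passed the filter only through E10.5 PA2. A fall was thus built into their choice for the test, and the list was written with earlier results known. The counts and medians of this list are therefore descriptions only. Foxf1, a forkhead factor of mesenchyme next to endoderm, had 32.4 to 37.1 CPM at E10.5 and 0 to 0.0340 CPM at E12.5, and Foxf2 17.5 to 19.2 and 0.0327 to 0.102 CPM. Hand2, a factor of the ventral arch, fell from 130 ± 7.43 to 1.55 ± 0.588 CPM (SD, n = 3; log2 fold change -6.37 with an SE of 0.19, edgeR adjusted p 7.16e-10). The rises were those of Osr2 (3.75, SE 0.21), a factor of palatal and other late facial mesenchyme, the cell cycle inhibitor Cdkn1c (1.98, SE 0.16), the cyclin Ccnd1 (0.93, SE 0.06) and the signalling protein Bmp4 (0.30, SE 0.11).

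At the step to E14.5, at which Gli1 rose again, 11 of the 14 were called, 3 higher and 8 lower, where 65.7% of all genes were called, with a median of -1.03 against -0.01 for all genes. Foxc2 (2.45 to 3.08 CPM at E12.5, 0 to 0.168 at E14.5), Foxl1 (0.131 to 0.260 and 0 to 0.0420 CPM) and Foxd1 (log2 fold change -3.78, SE 0.20, edgeR adjusted p 4.57e-08) fell most, and Osr2 (1.30), Bmp4 (1.22) and Hand2 (0.78) rose. Foxl1 was near the floor and below 1 CPM at both of these stages, so that the size of its fall is uncertain. Foxf1 stayed at 0 in 2 E14.5 libraries and at 0.131 CPM in the other. Over both steps 14 of 14 were called, 4 higher and 10 lower, where 82% of all genes were called, with a median of -5.24 against 0.02. The limit set by the filter, given above, applies here too.

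**Figure D4:**
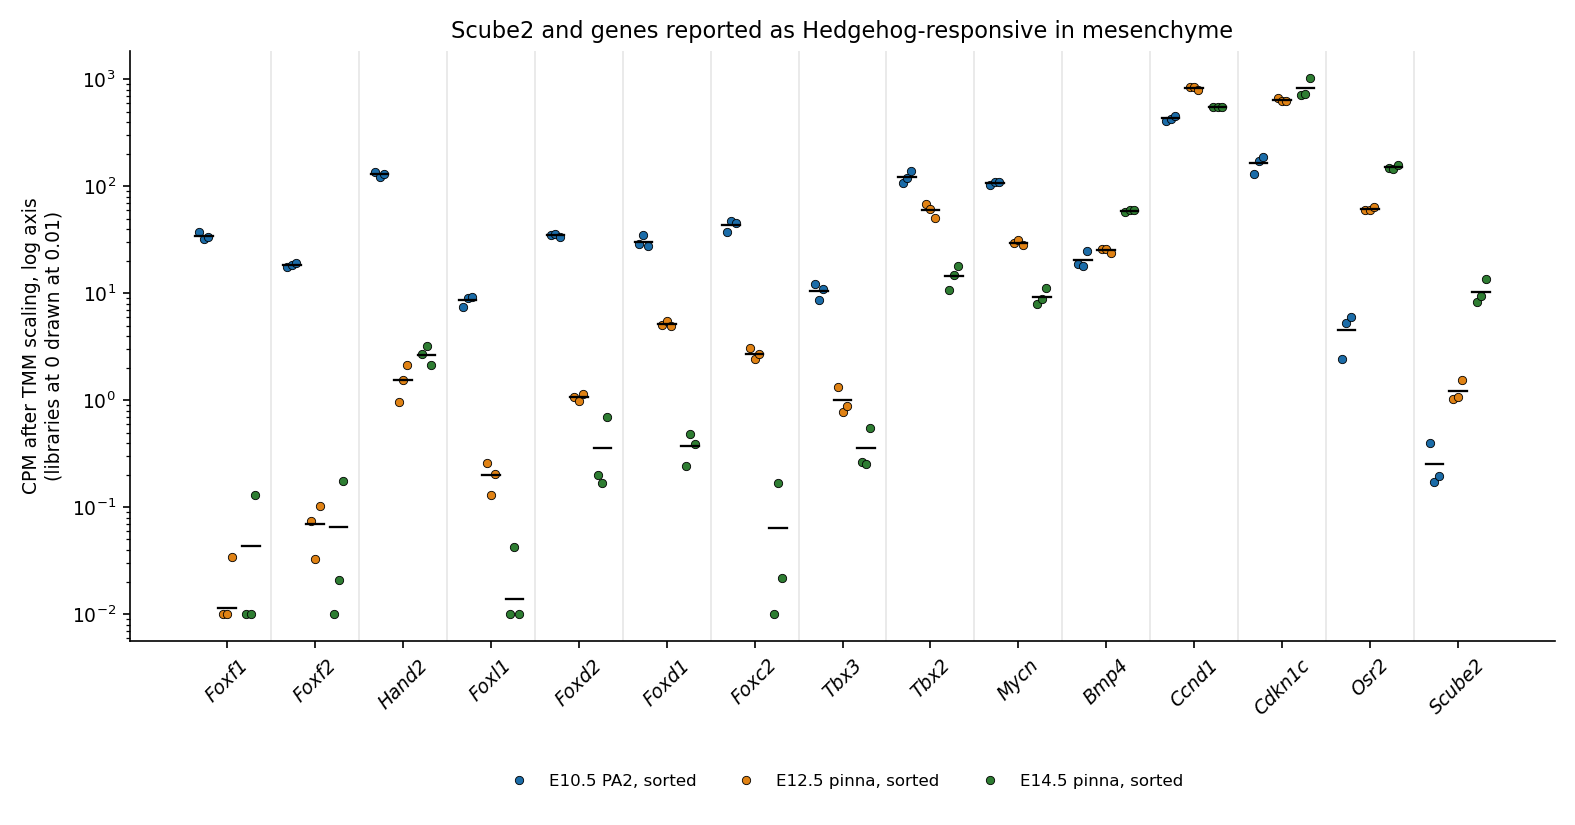
Levels of Scube2 and the 14 tested genes of the responsive list in the 9 sorted libraries, in CPM after TMM scaling on a log axis, with libraries at 0 drawn at 0.01, 1 point per library and a bar at the group mean. In all, 10 list genes lie lower in both pinna stages than in E10.5 PA2, while Ccnd1, Cdkn1c, Osr2 and Scube2 lie higher. Bmp4 lies higher at E14.5, whereas at E12.5 its libraries overlap those of E10.5 PA2 (log2 fold change 0.30).

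Other marker lists moved in the same libraries. The 6 chondrogenic markers summed to 1662 to 1705 CPM at E10.5, 667 to 709.87 at E12.5 and 337 to 372 at E14.5, with Matn1 at 0 throughout. Of the 5 tested, 0 were called higher and 4 lower at E12.5. From E12.5 to E14.5 the sum fell, but 2 were called higher and 2 lower, with a median log2 fold change of 0.24. The 6 endothelial markers summed to 17.4 to 20.8, 23.9 to 33.0 and 116 to 182 CPM, but did not move together. Of the 5 tested, 2 were called higher and 0 lower from E12.5 to E14.5. Between E14.5 and E10.5, 1 was called higher and 1 lower, with a median log2 fold change of -0.25. The 6 neuronal markers summed to 37.4 to 43.6, 30.2 to 35.9 and 10.99 to 17.5 CPM. Of the 4 tested, 2 were called higher and 2 lower between E14.5 and E10.5. The 8 crest mesenchyme markers summed to 1711 to 2009 CPM at E10.5, 3515 to 3769 at E12.5 and 3689.5 to 4053 at E14.5, with 5 called higher and 2 lower at E12.5 and 3 higher and 5 lower from E12.5 to E14.5. Their part in the changes of the 9 genes was not tested.

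The next question was how the pathway genes differed between the arches of wild-type embryos. Co-receptors differed most, with Gas1 and Cdon lower and Boc higher in PA3 than in PA2, and Ptch1 was somewhat higher in PA3. In all 4 of 9 genes were called by edgeR, 2 higher and 2 lower, where 36.5% of the 14383 genes tested were called (19.1% higher and 17.4% lower). Gas1 had 207, 180 and 199 CPM in PA2 WT and 81.9, 90.6 and 127 CPM in PA3 WT. It was 1.95-fold lower in PA3 (log2 fold change -0.97 with an SE of 0.16, edgeR adjusted p 0.000440). The groups did not overlap, although PA3 replicate 3 lay well above the other PA3 libraries.

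Cdon had 86.0, 97.5 and 99.2 CPM in PA2 WT and 72.4, 65.0 and 81.2 CPM in PA3 WT (log2 fold change -0.37, SE 0.08, edgeR adjusted p 0.00371). Boc went the other way, with 37.1, 41.5 and 40.5 CPM in PA2 WT and 51.3, 60.6 and 63.9 CPM in PA3 WT, a 1.48-fold difference (0.56, SE 0.12, edgeR adjusted p 0.00283). Ptch1 was at 190, 219 and 198 CPM in PA2 WT (189.8 in the lowest) and at 247, 265 and 243 CPM in PA3 WT (0.32, SE 0.06, edgeR adjusted p 0.00182). Each of these pairs of groups was free of overlap, as were the 2 groups of Smo, so that 5 of the 9 genes were separate against 49.9% of all genes. Per kb of exon, Gas1 made up 75.7% ± 2.39 (SD, n = 3) of the co-receptor sum in PA2 WT and 59.5% ± 3.41 in PA3 WT, and Boc 10.3% ± 0.973 and 23.6% ± 2.37.

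Gli1 (0.14, 95% interval -0.02 to 0.30), Gli2 (-0.01, -0.23 to 0.20) and Hhip (0.08, -0.24 to 0.39) did not pass the test between the arches. Across all 12 arch libraries Smo ranged from 248 to 314 CPM, Gli1 from 53.7 to 67.6, Gli2 from 35.6 to 55.9, Gli3 from 98.8 to 129 and Hhip from 12.6 to 20.3. Smo (-0.12, edgeR adjusted p 0.0744) and Gli3 (-0.18, edgeR adjusted p 0.0612) were just outside the threshold. PA2 and PA3 libraries of the same number were taken as paired, and with the pairing as a replicate block Gli3 was called lower in PA3 (-0.18, edgeR adjusted p 0.0289). It was also called without PA3 WT replicate 1 (-0.26, edgeR adjusted p 0.00606). DESeq2 called Smo (adjusted p 0.0457) and Gli3 (0.0459) as well, 6 of 9 genes against 37.5% of all genes. The Gli shares per kb were similar, with Gli1 at 35.9% ± 0.703 in PA2 WT and 40.3% ± 3.55 in PA3 WT.

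Dhh was the ligand that differed, at 0.232, 0.246 and 0.4002 CPM in PA2 WT and 3.90, 3.82 and 3.51 CPM in PA3 WT (log2 fold change 3.63, SE 0.28, edgeR adjusted p 1.24e-06). It was below 1 CPM in PA2 WT and passed the filter through PA3, where it was higher, so that its test is not independent of that choice. Shh had 3.60, 5.51 and 4.46 CPM in PA2 WT and 3.404, 6.895 and 6.43 CPM in PA3 WT (0.30, 95% interval -0.25 to 0.86), and Ihh was at or below 0.536 CPM. Among the 48 tested of 52 other pathway genes, 21 were called between the arches, 9 higher and 12 lower (43.8%, where 36.5% of all genes were called). With the pairing of the arches as a replicate block 25 of the 48 were called, 12 higher and 13 lower, where 42.4% of all genes were called. Of the responsive list, written with earlier results known, 10 of 15 were called, 6 higher and 4 lower, against the same 36.5% of all genes. DESeq2 called 9 of the 15, against 37.5% of all genes. With the replicate block 12 were called, against 42.4%. Tbx2 (1.79), Tbx3 (1.45) and Bmp4 (1.35) were the largest rises and Foxd1 (-0.79), Foxd2 (-0.77) and Mycn (-0.35) the largest falls. Scube1 (0.93) was higher in PA3 and Disp1 (-0.36) lower. Of the intracellular list 6 of 21 were called, against the same 36.5% of all genes, Btrc (0.23) higher and 5 lower, led by Ift88 (-0.39), Evc (-0.37) and Dyrk2 (-0.24).

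By CPM per kb, the order in PA2 WT was Smo (78.2), Gas1 (66.0), Ptch1 (16.5), Gli3 (13.2), Cdon (12.2), Gli1 (11.6), Boc (8.91), Gli2 (7.45) and Hhip (1.59), with Cdon and Gli1 the sole neighbours that overlapped. In PA3 WT it was Smo (72.2), Gas1 (33.7), Ptch1 (20.6), Boc (13.2), Gli1 (12.8), Gli3 (11.7), Cdon (9.44), Gli2 (7.39) and Hhip (1.68), and each neighbouring pair from Boc to Cdon overlapped. Boc thus stood at the seventh place in PA2 and at the fourth in PA3.

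The arches also differed in their cells. Summed epithelial markers were 282 to 323 CPM in PA2 WT and 622 to 806 in PA3 WT (7 of 8 called higher), neuronal markers 76.2 to 78.6 and 152 to 210 (210.1 in the highest; 6 of 6), erythroid markers 1526 to 2396 and 12356 to 24179.9 (6 of 6), and endothelial markers 292 to 307 and 343 to 363 (5 of 6). Crest mesenchyme markers were lower, at 1067 to 1198 CPM in PA2 WT against 721 to 918 in PA3 WT (5 of 8 lower, 2 higher), as were chondrogenic markers, at 1116 to 1296 CPM against 785 to 966 (3 of 4 tested lower). Schwann cell and melanocyte markers went from 13.0 to 15.2 CPM in PA2 WT to 21.5 to 25.4 in PA3 WT, with 2 of 6 tested called higher and 0 lower. Their part in the differences of Gas1, Cdon, Boc, Ptch1 and Dhh was not tested.

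**Figure D5:**
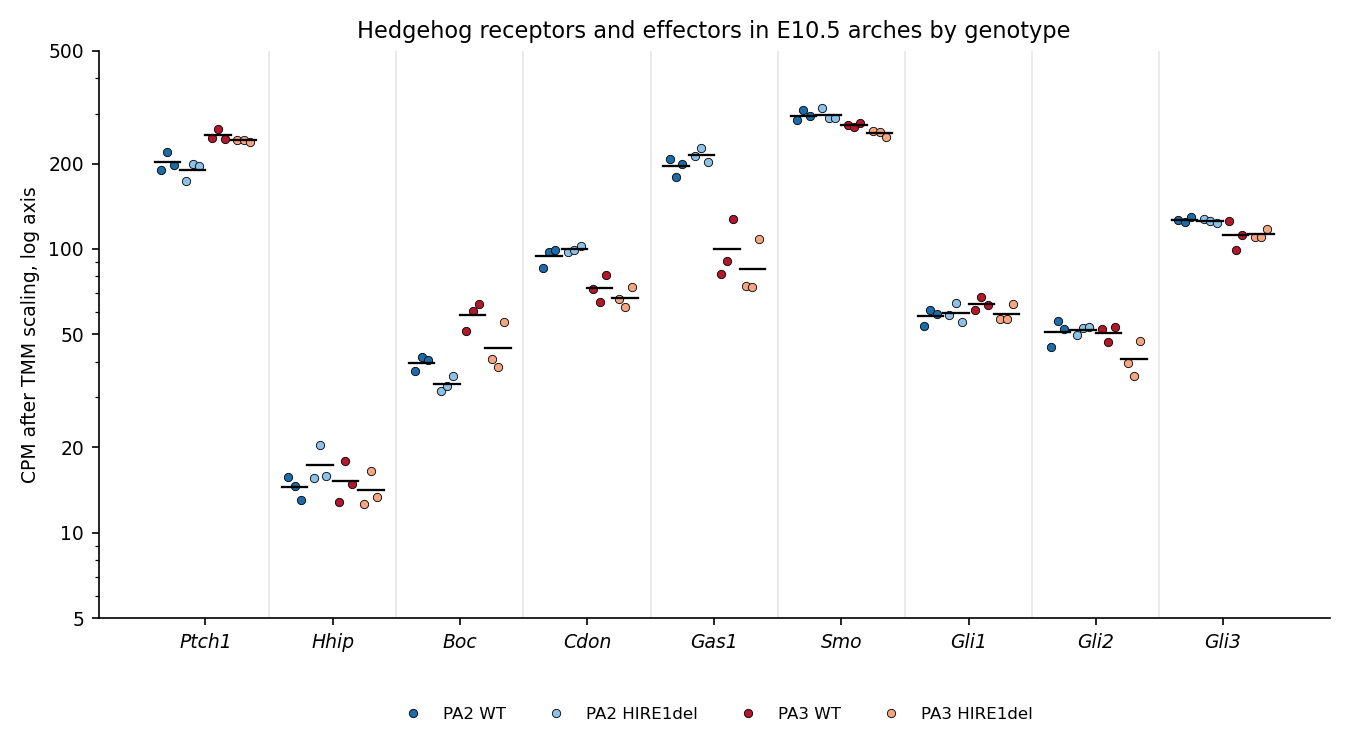
Levels of the 9 genes in the 12 libraries of dissected E10.5 arches, in CPM after TMM scaling on a log axis, with 1 point per library and a bar at the mean of each group of 3. HIRE1del points lie close to the WT points of the same arch, while Gas1 drops from 180 to 207 CPM in PA2 WT to 81.9 to 127 CPM in PA3 WT.

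The last question was whether loss of HIRE1 changed these genes. In PA2, 0 of the 9 genes were called by edgeR (0 at an unadjusted p under 0.05, against 8.57% of all genes, and 0 by DESeq2 or limma-voom), where 0.438% of the 14383 genes were called. In PA3 0 of 9 were called (2 at an unadjusted p under 0.05, against 9.73% of all genes, and 0 by DESeq2 or limma-voom), where 0.216% of all genes were. The difference of the effects in the arches, PA2 minus PA3, was called for 0 of 9 (1 at an unadjusted p under 0.05, against 5.52% of all genes, and 0 by DESeq2 or limma-voom), against 0.0487% of all genes. With a block for the pairing of the arches, 26 genes rather than 7 had a called difference, and still 0 of the 9.

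In PA2, Gli1 had 53.7, 61.0 and 59.1 CPM in WT and 58.3, 64.5 and 55.3 CPM in HIRE1del, with a log2 fold change of 0.04 (95% interval -0.13 to 0.20). Ptch1 had 173, 199 and 195 CPM in PA2 HIRE1del (-0.10, -0.23 to 0.04). The genotypes overlapped for both genes.

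Gas1 had 212, 227 and 202 CPM in PA2 HIRE1del and 74.2, 73.7 and 108 CPM in PA3 HIRE1del. The WT means were 196 ± 13.9 in PA2 and 99.9 ± 24.1 CPM in PA3 (SD, n = 3), and the genotypes overlapped in both arches. For Smo the interval in PA2 was -0.09 to 0.11, for Gli3 -0.16 to 0.14, for Gli2 -0.20 to 0.23, for Cdon -0.10 to 0.26, for Gas1 -0.21 to 0.47 and for Hhip -0.05 to 0.57. Boc was the sole gene whose PA2 groups did not overlap (13.2% of all genes were so separated), at 37.1 to 41.5 CPM in WT and 31.5, 32.9 and 35.8 CPM in HIRE1del (-0.25, 95% interval -0.52 to 0.01, edgeR adjusted p 0.615).

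In PA3, Boc had 40.9, 38.5 and 55.3 CPM in HIRE1del against 51.3 to 63.9 CPM in WT. The log2 fold change was -0.38 (95% interval -0.64 to -0.12, edgeR adjusted p 0.330; unadjusted p 0.00693). HIRE1del replicate 3 lay within the WT range, and without it Boc was called, at -0.56 with an adjusted p of 0.0380, the sole such change of a call. Gli2 had 39.5, 35.6 and 47.4 CPM in PA3 HIRE1del against 52.1, 46.9 and 53.2 CPM in WT (-0.31, 95% interval -0.53 to -0.10, edgeR adjusted p 0.344). Its effect in PA2 minus that in PA3 was 0.33 (95% interval 0.02 to 0.64, edgeR adjusted p 0.887). In PA3, Ptch1 (-0.06, -0.20 to 0.08) and Smo (-0.09, -0.20 to 0.01) were separate between the genotypes by narrow margins (2 of 9 genes, against 14.3% of all genes), and Gli1 (-0.11, -0.27 to 0.05), Gli3 (0.01, -0.14 to 0.16), Cdon (-0.11, -0.29 to 0.07), Gas1 (-0.23, -0.57 to 0.12) and Hhip (-0.10, -0.42 to 0.21) overlapped.

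Among the 48 other pathway genes tested, edgeR called 0 in PA2, 0 in PA3 and 0 for the difference of the arches. At an unadjusted p under 0.05 (edgeR) there were 8, 6 and 3, against 8.57%, 9.73% and 5.52% of all genes. With a block for the replicate number across all groups, Ccnd1 was called higher in PA2 HIRE1del and Scube1 lower in PA3 HIRE1del. With that block 0.730% and 0.375% of all genes were called in PA2 and PA3. Between genotypes the replicate number paired no libraries, so that this block does not strengthen the 2 calls. With the pairing of the arches as the block, 0 of the 48 were called for the difference of the arches, against 0.181% of all genes. DESeq2 called the same 2 genes, and limma-voom called Scube1 in PA3. Ccnd1 had 382, 387 and 358 CPM in PA2 WT and 453, 465 and 439 CPM in PA2 HIRE1del, groups without overlap, at a log2 fold change of 0.27 (95% interval 0.14 to 0.39, edgeR adjusted p 0.0721 without the block). Scube1 had 95.9, 83.3 and 89.0 CPM in PA3 WT and 50.6, 64.3 and 67.9 CPM in PA3 HIRE1del, groups without overlap, at a log2 fold change of -0.55 (95% interval -0.78 to -0.33, edgeR adjusted p 0.0542). In PA2 it was -0.30 (-0.53 to -0.07, edgeR adjusted p 0.418). Shh was at 2.74, 3.27 and 4.73 CPM in PA2 HIRE1del (-0.34, -0.91 to 0.24) and at 5.20, 5.73 and 4.90 CPM in PA3 HIRE1del (-0.08, -0.64 to 0.47). The neuronal markers summed to 56.9 to 58.9 CPM in PA2 HIRE1del against 76.2 to 78.6 in PA2 WT, with 0 of 6 called. The chondrogenic markers summed to 1393 to 1481 CPM in PA2 HIRE1del against 1116 to 1296 in PA2 WT, with 0 of 4 tested called, and 0 markers of the other lists were called by genotype.

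Some genes resembled Ptch1 or Gli1 in pattern over both series. The measure was the mean of Pearson's r of log2(CPM + 1) over the 12 arch libraries and over the 9 sorted libraries, among 12871 genes tested in both, with no test, and the points share groups and libraries. Closest to Ptch1 were Igf2 (mean r 0.964), an embryonic growth factor, the cell cycle inhibitor Cdkn2b (0.946) and Foxf1 (0.942). Cdkn2b (0 to 0.0653 CPM at E12.5, 0 to 0.126 at E14.5) and Foxf1 (0 to 0.0340 and 0 to 0.131) were near the floor in the pinna. They share the fall of Ptch1, but a later rise cannot be read from them. Cdkn2b was also below 1 CPM in PA2 WT (0.542 to 0.666) and PA2 HIRE1del (0.0376 to 0.407). It passed the filter only through PA3 and sorted E10.5 PA2, where Ptch1 was higher. Foxf1 passed the filter of the stage series only through E10.5 PA2. Part of the likeness of these genes to Ptch1 was thus built into their choice. Igf2 had 668 ± 37.1 CPM in PA2 WT, 1012 ± 61.8 in PA3 WT, and 758 ± 50.4, 343 ± 8.87 and 392 ± 42.4 in the sorted E10.5, E12.5 and E14.5 cells (SD, n = 3). Closest to Gli1 were Whamm (0.843), Lrrc75a (0.821) and Egfl7 (0.807), at lower values than for Ptch1. Whamm had 7.42 ± 0.586, 4.90 ± 0.437 and 7.26 ± 0.620 CPM across the stages, so that it shared the order of the Gli1 levels but not the size of their change. Over the 9 sorted libraries alone, 267 genes had an r above 0.95 with Ptch1 and 76 with Gli1.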

How the data were processed

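Unstranded libraries of total RNA were read at 50 bases, paired-end for the genotype series and single-end for the stage series. The authors aligned reads to GRCm38 (mm10) with QuasR and Rhisat2, counted alignments over UCSC known gene exons in the opposite orientation, and deposited raw counts per gene without normalization. The submitters' processing notes name bcl2fastq 2.17 and 2.20. Here each table was filtered at 1 CPM in 2 libraries and scaled by TMM. Models with a mean per group were fitted in R 4.3.3 with edgeR 4.0.16 (two-sided quasi-likelihood test, Benjamini-Hochberg adjustment over all genes, called at 0.05). limma 3.58.1 (voom) and DESeq2 1.42.0 were alternatives, as were total-count and DESeq2 scaling, other filters, fits on only the 6 compared libraries, a block for the replicate number and leaving out each library. The block was set within genotype for the comparisons between arches and across groups elsewhere. The fits were first tested on simulated data. Positions and exon overlaps were read from GENCODE M21, and promoter windows from RefSeq. Lengths were the exonic bases given in the count tables.

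The genes, the pathway and marker lists and the rule for naming genes (all 9, every ligand and, per list and comparison, up to 3 called genes each way) were chosen with earlier results of these data known. Replicates are described as independent biological ones; replicate pairs differed by 7.00 to 46.5 chi-square per degree of freedom, beyond counting error. Deviations from the group mean correlated between PA2 and PA3 libraries of the same number (r 0.226 to 0.394 in WT and 0.239 to 0.354 in HIRE1del, each highest with its own number), which was taken as pairing. The labels do not state it. Values of 1 gene of the pathway lists are not reported here.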

Additional observations from a re-analysis of the deposited data

How the results depend on the processing

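Of 927 log2 fold changes recomputed under the alternatives, 886 kept direction and call, 6 lost and 10 gained the call, and 25 changed sign, all in values that were not called. The number of the 9 genes called stayed within 1.5 times the reported one in 102 of 103 recomputations, the exception being PA3 HIRE1del against WT (0 to 1 when a library was left out). Total counts in place of TMM turned Smo in PA2 HIRE1del (-0.0039), Gli3 in PA3 HIRE1del (-0.011) and Smo from E12.5 to E14.5 (-0.080), and moved the levels of Ptch1 at E14.5 (89.4 CPM), Cdon at E12.5 (555 CPM) and Gas1 at E12.5 (347 CPM). Requiring 1 CPM in every library turned Gli2 in PA3 against PA2 (0.015). Left-out libraries gave ranges across 0 for Smo (-0.031 to 0.042), Gli1 (-0.029 to 0.084), Gli2 (-0.065 to 0.084) and Gli3 (-0.026 to 0.0029) in PA2 HIRE1del, for Gli3 (-0.071 to 0.10) and Hhip (-0.23 to 0.029) in PA3 HIRE1del, for the arch difference of the effect on Ptch1 (-0.080 to 0.025) and Gli3 (-0.11 to 0.059), for Gli2 (-0.092 to 0.057) and Hhip (-0.054 to 0.19) between the arches, for Hhip from E10.5 to E12.5 (-0.018 to 0.26), and for Hhip (-0.36 to 0.080) and Gas1 (-0.19 to 0.013) from E10.5 to E14.5. The cause was not tested. Without division by exon length, the share of Gli1 was 24.6, 25.1, 28.3 and 27.8% in PA2 WT, PA2 HIRE1del, PA3 WT and PA3 HIRE1del and 1.20%, 16.3% and 23.2% at E12.5, E14.5 and E10.5. The share of Gas1 was then 59.3, 61.6, 42.8, 42.9, 30.7, 19.9 and 57.9% in the same order, a shift that follows from the construction.

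Calls over all genes depended on the tool, with 63 by edgeR, 162 by DESeq2 and 105 with a replicate block in PA2, 31, 94 and 54 in PA3, and 7, 27 and 26 for the difference of the arches. The replicate block changed no call of the 9 genes other than that of Gli3 between the arches (-0.18). Between genotypes and between stages, libraries of the same number did not deviate together throughout (r -0.324 to 0.257), so that the number pairs nothing there. With 3 libraries per group, p-values measure the spread of these pools, and intervals were widest for Hhip in the 3 stage comparisons.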
